A study of Mus musculus with 16 samples.

Results

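The genes described here encode proteins that mostly cut introns out of pre-mRNA or bind RNA in the nucleus, while some act on mRNA in the cytoplasm. They were taken as the probes whose single gene symbol begins with Sf3a, Sf3b, U2af, Snrp, Prpf, Lsm, Srsf (formerly Sfrs), Hnrnp or Rbm followed by a number, or by any letters for Hnrnp, Snrp and U2af. That rule found 123 probes of 80 genes among 20355 probes, of which 14030 carried a single symbol. Enough arrays gave a value for 100 of these probes, which stand for 70 genes among 12420 features tested, and the other 10 genes are described apart.

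The cells were NIH3T3, an established mouse fibroblast line, either untransfected or transfected with Erbb2, a receptor tyrosine kinase oncogene. Azacytidine, a cytidine analogue that enters RNA and DNA and traps DNA methyltransferases, was given at 10 µM or 5 µM to Erbb2 cells and at 10 µM to untransfected cells. Each 2-colour cDNA array carried RNA of treated cells and of untreated cells from the same line, so both channels of an Erbb2 array carry the transgene. There were 8 arrays for Erbb2 cells at 10 µM, 4 for Erbb2 cells at 5 µM and 4 for untransfected cells at 10 µM. The promoter of the transgene, the clone, the duration of treatment and whether arrays came from separate cultures are not stated. The p-values thus describe the spread over arrays, which may be technical. The design concerns what the drug changes in cells with and without the oncogene.

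Splicing is carried out by the spliceosome, which is assembled on each intron from small nuclear ribonucleoproteins (snRNPs) and many loose proteins. Sm and LSm proteins form rings around the small nuclear RNAs, U2AF and SF3 proteins mark the 3′ end and the branch point of the intron, and PRPF proteins drive the rearrangements that precede the cut. SR proteins mostly favour the use of an exon and hnRNP proteins often oppose it, and the RBM symbols cover a mixed set of proteins with RNA-recognition domains. Most of these genes are expressed in every dividing cell.

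Values are log2 ratios, taken as treated over untreated, where a negative value means less RNA in treated cells. The numerator of the deposited ratios is not stated, so each direction below is an assumed one. It rests on reading them as Cy5 over Cy3 and turning the sign where the treated RNA was in Cy3. On all 16 arrays the constant by which the ratios appear centred was below 0 (-1.172 to -0.018), with the treated RNA in either dye. For untransfected cells both channels of an array carry the same dye label, and if it was the untreated RNA that carried the dye named for channel 1, every sign of that group turns. An error after ± is the standard error of limma's fitted value, and a gene passed where its Benjamini-Hochberg adjusted p over all features was under 0.05.

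An array gave between 16153 and 18507 ratios, with an interquartile range from 0.71 to 1.36 that was widest in Erbb2 cells at 10 µM (arrays 3, 5 and 6). Precision is limited by how many arrays there are, and no intensities were used here, so signal over background is unknown. A ratio has no level, so the fibroblast identity could not be checked by marker level. As changes, 1 of 9 measured fibroblast markers passed as higher in Erbb2 cells at 10 µM and 3 of 9 as lower in untransfected cells. Of 6 epithelial markers 1 passed as higher and of 4 blood markers 1 as lower, both in untransfected cells. Of all features, 1.26% passed in either direction in Erbb2 cells at 10 µM and 2.73% in untransfected cells. The directions in untransfected cells depend on the dye read for those arrays. The part of these markers in the values below was not tested. In RNA of whole cultures, fewer cells of a type and less RNA per cell cannot be told apart.

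Azacytidine acts at CpG sites of DNA, so the promoters of these genes were read from RefSeq (build GRCm38.p6), as the stretch just before and after each start site. All 80 genes matched the reference by gene ID, and 67 had a promoter there. Their median was 25 CpG dinucleotides in the 300 bases of the window with the most, with a range from 7 to 49, against a median of 8 over 27025 genes. A window with 10 or more was found in 65 of the 67 genes (97.0%), against 45.8% of all genes. Snrpn and Snrpa1 were below that, with 7 each. Of the promoters, 2 are printed with each CG in capitals, each the window of its gene with the most CpG. Other start sites of Hnrnpf had 7, 24 and 32 CpG, and those of Snrpn had 4, 3 and 2. Hnrnpf is shown because it came nearest to the threshold in untransfected cells, and Snrpn because it has few CpG and is the imprinted gene of the set, with its paternal copy active. Both were chosen after their values were seen. Methylation was not measured, and a count of CpG is a description of the letters only.
Hnrnpf, chr6:117907554-117907853, plus strand, 37 CpG: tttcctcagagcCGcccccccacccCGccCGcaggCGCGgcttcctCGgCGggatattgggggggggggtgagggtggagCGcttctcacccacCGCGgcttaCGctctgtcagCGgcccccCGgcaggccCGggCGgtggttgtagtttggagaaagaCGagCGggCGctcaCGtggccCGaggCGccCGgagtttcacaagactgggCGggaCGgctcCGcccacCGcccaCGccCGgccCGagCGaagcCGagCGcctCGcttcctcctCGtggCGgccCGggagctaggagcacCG
Snrpn, chr7:60005150-60005449, minus strand, 7 CpG: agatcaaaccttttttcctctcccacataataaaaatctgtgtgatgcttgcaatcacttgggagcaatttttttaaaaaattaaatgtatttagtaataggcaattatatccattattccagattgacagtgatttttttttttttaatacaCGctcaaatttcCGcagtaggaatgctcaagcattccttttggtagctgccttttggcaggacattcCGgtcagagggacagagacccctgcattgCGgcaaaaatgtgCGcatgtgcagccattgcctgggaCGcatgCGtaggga

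No gene of the set passed the test in any group. At 10 µM in Erbb2 cells, 0 of 70 passed in limma, against 1.26% of all features, and 8 had an unadjusted p under 0.05 (11.4%, against 10.8% of all features). At 5 µM, 0 of 70 passed, against 0.209% of all features, and 3 had such an unadjusted p (4.29%, against 6.33%). In untransfected cells 0 of 70 passed, against 2.73% of all features, and 10 had such an unadjusted p (14.3%, against 11.5%). The shares at an unadjusted p were thus near those of all features in each group.

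Medians lay near 0 in each group. The median over the 70 genes was -0.09 in Erbb2 cells at 10 µM, against 0.00 over all features, with a range from -1.61 (Rbm44) to 1.83 (Snrpd1). At 5 µM the median was -0.08 against -0.02, and in untransfected cells 0.03 against 0.03. Values were above 0 for 21 genes at 10 µM (30.0%, against 49.4% of all features), for 24 at 5 µM (34.3%, against 47.7%) and for 37 in untransfected cells (52.9%, against 53.1%). Without any turning for dye, the median at 10 µM was -0.00.

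How large a change the arrays leave possible differed between genes. The median standard error was 0.22, 0.30 and 0.30 over the 70 genes in the 3 groups, against 0.26, 0.36 and 0.36 over all features. The 95% interval of the value lay between -1 and 1 for 52 genes in Erbb2 cells at 10 µM (74.3%, against 63.5% of all features), for 40 at 5 µM (57.1%, against 47.6%) and for 36 in untransfected cells (51.4%, against 42.7%). For the remaining genes a change beyond 1 in size was within the interval.

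**Figure D1:**
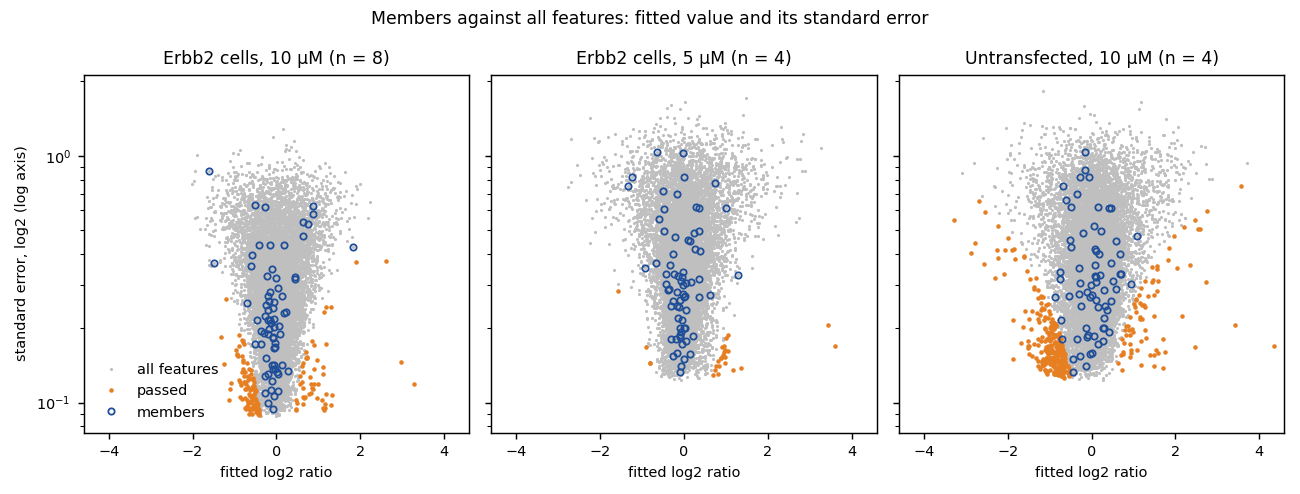
Fitted log2 ratio of treated over untreated cells (x axis) against its standard error in log2 units (y axis, log scale) for each group, with all 12420 features as grey dots, features past the threshold in orange and the 70 splicing and RNA-binding protein genes as open blue circles. None of the circles is among the orange points, and in Erbb2 cells at 10 µM they run from -1.61 to 1.83.

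**Figure D2:**
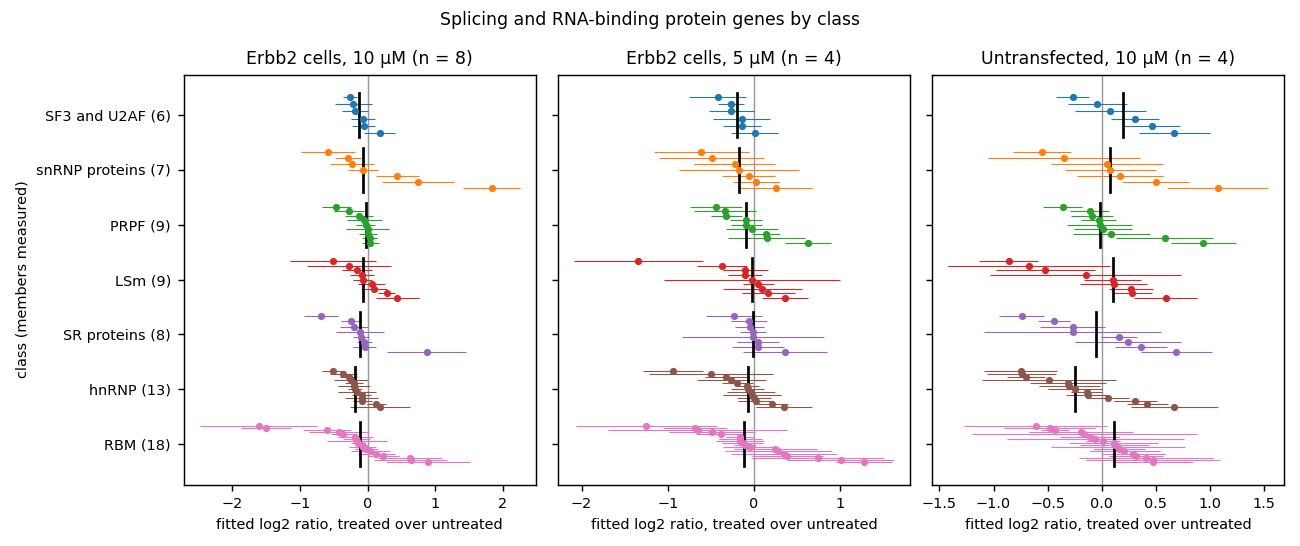
Fitted log2 ratio of treated over untreated cells (x axis) for each of the 70 genes, by class (y axis, with the number of genes measured), where lines are ± 1 standard error and black bars are class medians. In Erbb2 cells at 10 µM the class medians lie between -0.19 (hnRNP) and -0.03 (PRPF), and in untransfected cells between -0.25 (hnRNP) and 0.19 (SF3 and U2AF).

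The snRNP proteins, which form the Sm ring or bind one particular small nuclear RNA, had 7 measured genes of 8, with medians of -0.07 and -0.17 in Erbb2 cells (10 and 5 µM) and of 0.08 in untransfected cells, the order in which medians are given for each class. Snrpd1, a protein of the Sm ring, had the highest value of the set. On the arrays of Erbb2 cells at 10 µM it read 0.01, -0.10 and 0.62 where Cy5 marked the treated RNA and 5.12, 3.33 and 2.01 where Cy3 did, and 2 arrays gave no value. The groups of 3 by dye did not overlap. The fitted value was 1.83 ± 0.42 (n = 6, limma adjusted p = 0.0728).

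At 5 µM Snrpd1 read -0.87, -2.05 and 0.40 on 3 arrays, and in untransfected cells -0.46, 0.08, 0.84 and -0.27. Both groups had values on either side of 0. Snrpb, another protein of the Sm ring, read 0.51, 2.83, -0.13 and 1.09 in untransfected cells (1.07 ± 0.47, n = 4, limma adjusted p = 0.407). On 6 arrays of Erbb2 cells at 10 µM it ran from -1.26 over a median of -0.75 to 0.84, and at 5 µM all 3 of its values were below 0 (-0.61 ± 0.55). Snrpd3, also of that ring, read between -0.57 and -0.52 on all 4 untransfected arrays (-0.55 ± 0.27, limma adjusted p = 0.469).

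Snrpn, the imprinted relative of Snrpb whose promoter is shown above, read -0.68, 0.68, 1.62 and -0.58 at 5 µM. On 7 arrays of Erbb2 cells at 10 µM it ran from -0.83 over a median of 0.14 to 2.41 (0.44 ± 0.32, limma adjusted p = 0.665). Those arrays read -0.83, -0.18, 0.14 and -0.38 where Cy5 marked the treated RNA and 2.41, 1.27 and 0.22 where Cy3 did. The values by dye thus did not overlap at 10 µM. In untransfected cells Snrpn read 0.16, -0.09, 0.66 and -0.41. The values lay on both sides of 0 in every group. The 95% interval at 10 µM ran from -0.24 to 1.13. Snrpa1, a U2 snRNP protein with an equally CpG-poor promoter, had fitted values of 0.74, -0.17 and -0.35 in the 3 groups with standard errors from 0.53 to 0.70. The other measured genes of the class, Snrpa and Snrpb2, had fitted values between -0.23 and 0.50. Whether the cDNA probes separate close relatives such as Snrpb and Snrpn was not tested.

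SF3 and U2AF proteins recognise the branch point and the 3′ splice site. Of 8 genes with probes 6 were measured, with medians of -0.13, -0.20 and 0.19, and Sf3b1 and U2af2 are not analysed here. Sf3b2, a subunit of SF3b, had nearly the same fitted value in each group. Its 8 values in Erbb2 cells at 10 µM ran from -0.64 over a median of -0.23 to 0.10 (-0.26 ± 0.11, n = 8, limma adjusted p = 0.387). At 5 µM it read -0.28, -0.17, -0.38 and -0.25, and in untransfected cells -0.60, -0.31, -0.07 and -0.11, with fitted values of -0.27 ± 0.15 in both. It was below 0 on 7 of 8 arrays in the first group and on all 4 arrays in each of the others.

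U2af1, the subunit of U2AF that binds the last bases of the intron, read 0.22, 0.52, 0.26 and 0.23 in untransfected cells (0.31 ± 0.22, n = 4, limma adjusted p = 0.759). With Erbb2 and 10 µM it ran from -0.59 over a median of -0.08 to 0.74 (-0.06 ± 0.17, n = 7), and at 5 µM it read 0.14, 0.04, -0.77 and 0.05. Its relative U2af1l4 read 0.16, 1.83, 0.58 and 0.11 in untransfected cells (0.67 ± 0.33, limma adjusted p = 0.483). All 4 of its values at 5 µM were below 0, from -0.81 to -0.05. The other measured genes of the class, Sf3a1, Sf3a3 and Sf3b5, had fitted values between -0.26 and 0.46.

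PRPF proteins belong to the U4/U6 and U5 particles or to the complexes that activate the spliceosome. Of 11 genes 9 were measured, with medians of -0.03, -0.09 and -0.02. Prpf3, a U4/U6 protein, read 1.60, -0.13, 1.94 and 0.35 in untransfected cells (0.94 ± 0.30, n = 4, limma adjusted p = 0.158). At 5 µM it read -0.41, -0.33, -0.68 and -0.32, and in Erbb2 cells at 10 µM it ran from -1.17 over a median of -0.48 to 0.22 (-0.46 ± 0.21, n = 8, limma adjusted p = 0.459). With the dyes as read, it was thus mostly low in Erbb2 cells and mostly high in untransfected cells.

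Prpf8, the large protein at the centre of the spliceosome, had fitted values of -0.13 ± 0.21, -0.02 ± 0.30 and -0.02 ± 0.30. Its arrays in untransfected cells read 0.07, -0.15, 0.16 and -0.15, and at 5 µM 0.08, 0.38, -0.40 and -0.13. Those of Erbb2 cells at 10 µM ran from -1.24 to 1.06. The 95% interval at 10 µM was from -0.58 to 0.32. Prpf38a, which acts in activation, read -0.12, 1.0, 0.10 and 1.54 at 5 µM (0.63 ± 0.27, limma adjusted p = 0.745) and ran from -0.78 to 0.16 on 6 arrays at 10 µM. Prpf19, a ubiquitin ligase of the spliceosome, was below 0 on all 4 untransfected arrays, from -0.66 to -0.08 (-0.36 ± 0.18, limma adjusted p = 0.499). Prpf18, Prpf38b, Prpf4, Prpf4b and Prpf6 had fitted values between -0.34 and 0.58 in the 3 groups.

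LSm proteins form the ring on U6 or, as Lsm1, a related ring on mRNA that is being degraded, and Lsm10 and Lsm11 belong to the U7 particle of histone mRNA. Of 10 genes 9 were measured, with medians of -0.07, -0.02 and 0.10. Lsm14a, a protein of cytoplasmic mRNA granules, had closely matched values in untransfected cells, at -0.90, -0.83, -0.79 and -0.93 (-0.86 ± 0.27, n = 4). Its limma adjusted p was 0.134, and 0.0417 with array 5 of Erbb2 cells at 10 µM left out, which shares its estimate of spread. At 5 µM it read 1.01, 0.95, -0.16 and -0.35, and in Erbb2 cells at 10 µM it ran from -0.49 over a median of -0.08 to 1.10.

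With the dyes as read, every untransfected array of Lsm14a lay below every array of Erbb2 cells at 10 µM. Lsm4, a protein of the U6 ring, read 0.07, 0.44, 0.02 and 0.58 in untransfected cells (0.28 ± 0.18, n = 4, limma adjusted p = 0.682) and -0.21, -0.01, 0.16 and 0.25 at 5 µM. The 7 values in Erbb2 cells at 10 µM ran from -0.12 over a median of 0.23 to 0.76 (0.28 ± 0.13, limma adjusted p = 0.484). Lsm8, another protein of that ring, read -0.87, 1.40, 1.08 and 0.75 in untransfected cells (0.59 ± 0.29, limma adjusted p = 0.464) and passed there, as higher, with the first of these arrays left out. It is named because of that call, after its values were seen. Lsm10 held the lowest value of the set at 5 µM, -1.34 ± 0.75, from arrays that read -4.98, 0.94, -0.13 and -1.21. Lsm1, Lsm3, Lsm11, Lsm12 and Lsm14b had fitted values between -0.52 and 0.44.

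SR proteins carry a domain rich in arginine and serine and bind exons. Of 9 genes 8 were measured, with medians of -0.11, -0.01 and -0.05. Srsf5 was low on every untransfected array, at -0.37, -0.88, -0.57 and -1.12 (-0.74 ± 0.21, n = 4, limma adjusted p = 0.102). Its range in Erbb2 cells at 10 µM was from -1.13 over a median of -0.24 to 0.32, and at 5 µM it read 0.43, 0.14, -0.61 and -0.19. Srsf2, which bears on both splicing and transcription, read -0.19, -0.27, -0.92 and -0.37 in untransfected cells (-0.44 ± 0.15, limma adjusted p = 0.197). Its fitted values in Erbb2 cells were -0.05 ± 0.11 at 10 µM and -0.01 ± 0.15 at 5 µM.

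Srsf11 was below 0 on all 7 arrays of Erbb2 cells at 10 µM with a value, from -2.48 over a median of -0.29 to -0.09 (-0.69 ± 0.25, limma adjusted p = 0.315). In untransfected cells it read 0.87, 0.82, 0.10 and 0.98 (0.69 ± 0.33, limma adjusted p = 0.455), and at 5 µM -0.27, 0.20, -0.48 and -0.37. With the dyes as read, the arrays of the 2 groups at 10 µM did not overlap. Srsf1, the founding member of the family, had fitted values of -0.11 ± 0.35, 0.36 ± 0.49 and 0.24 ± 0.49, with values on both sides of 0 in each group. Srsf3 had -0.10 ± 0.12, -0.05 ± 0.17 and 0.16 ± 0.17, and its 95% intervals in the 3 groups ran between -0.42 and 0.53. Srsf9 had a fitted value of 0.87 ± 0.58 in Erbb2 cells at 10 µM from arrays between -2.15 and 5.26, while Srsf4 and Srsf6 had fitted values between -0.27 and 0.36 in the 3 groups.

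The hnRNP proteins, abundant nuclear proteins that coat pre-mRNA, had 13 measured genes of 14 and the lowest class median in untransfected cells, -0.25, with 9 of 13 values below 0. In Erbb2 cells the medians were -0.19 at 10 µM, with 11 of 13 below 0, and -0.07 at 5 µM. Hnrnpf, which binds runs of G and whose promoter is shown above, had the smallest adjusted p of the set. In untransfected cells it read -0.55, -0.74, -0.88 and -0.65. All 4 arrays lay close together and below 0, whichever dye the treated RNA was labelled with. The fitted value was -0.70 ± 0.18 (n = 4), with a 95% interval from -1.09 to -0.31 and a limma adjusted p of 0.0569.

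Hnrnpf in Erbb2 cells at 10 µM ran from -0.73 over a median of -0.26 to 0.31 (-0.28 ± 0.13, n = 8, limma adjusted p = 0.449), and at 5 µM it read -0.33, -0.49, 0.22 and -0.18. The groups overlapped. In untransfected cells it passed in 8 of 32 alternative analyses, with limma adjusted p-values from 0.0167 to 1.0 over all 32. Leaving out array 3 or array 8 of Erbb2 cells at 10 µM, which share its estimate of spread, gave 0.0310 and 0.0496.

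Hnrnpa1, a repressor of many exons, was also low on every untransfected array, at -0.72, -0.84, -0.56 and -0.86 (-0.74 ± 0.32, n = 4, limma adjusted p = 0.364). It read 0.34, 0.17, 0.96 and -0.06 at 5 µM and ran from -1.50 over a median of -0.19 to 1.09 in Erbb2 cells at 10 µM. Hnrnpab read -0.48, -0.42, -0.40 and -1.68 in untransfected cells (-0.75 ± 0.34, limma adjusted p = 0.407). Hnrnpd, which binds AU-rich mRNA, read 0.35, 0.93, 0.36 and 0.04 there (0.42 ± 0.19, limma adjusted p = 0.417), so the class held values on both sides of 0.

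Hnrnpu, which also binds chromatin, was below 0 on 7 of 8 arrays of Erbb2 cells at 10 µM, from -0.85 over a median of -0.66 to 0.21 (-0.51 ± 0.17, limma adjusted p = 0.263). At 5 µM it read -0.27, -0.75, -0.04 and -0.21, and in untransfected cells 0.65, -0.95, -0.13 and -0.56. Hnrnpk, which binds C-rich sequence, read -0.12, 1.40, -0.32 and 1.72 in untransfected cells, -0.10, 0.14, -0.76 and -0.33 at 5 µM, and ran from -1.33 to 1.24 at 10 µM. Its fitted values of 0.67 ± 0.40, -0.26 ± 0.40 and -0.15 ± 0.28 all had a 95% interval that held 0. Hnrnpl, which binds CA repeats, was low on the 4 arrays at 5 µM, at -0.53, -0.29, -1.64 and -1.30 (-0.94 ± 0.35, limma adjusted p = 0.568). Hnrnpa3 was below 0 on the 3 arrays with a value there (-0.50 ± 0.72) and Hnrnpc above 0 on all 4, from 0.06 to 0.35 (0.21 ± 0.19). Hnrnpa2b1, Hnrnpdl, Hnrnpm and Hnrnpul2 had fitted values between -0.36 and 0.31 in the 3 groups.

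**Figure D3:**
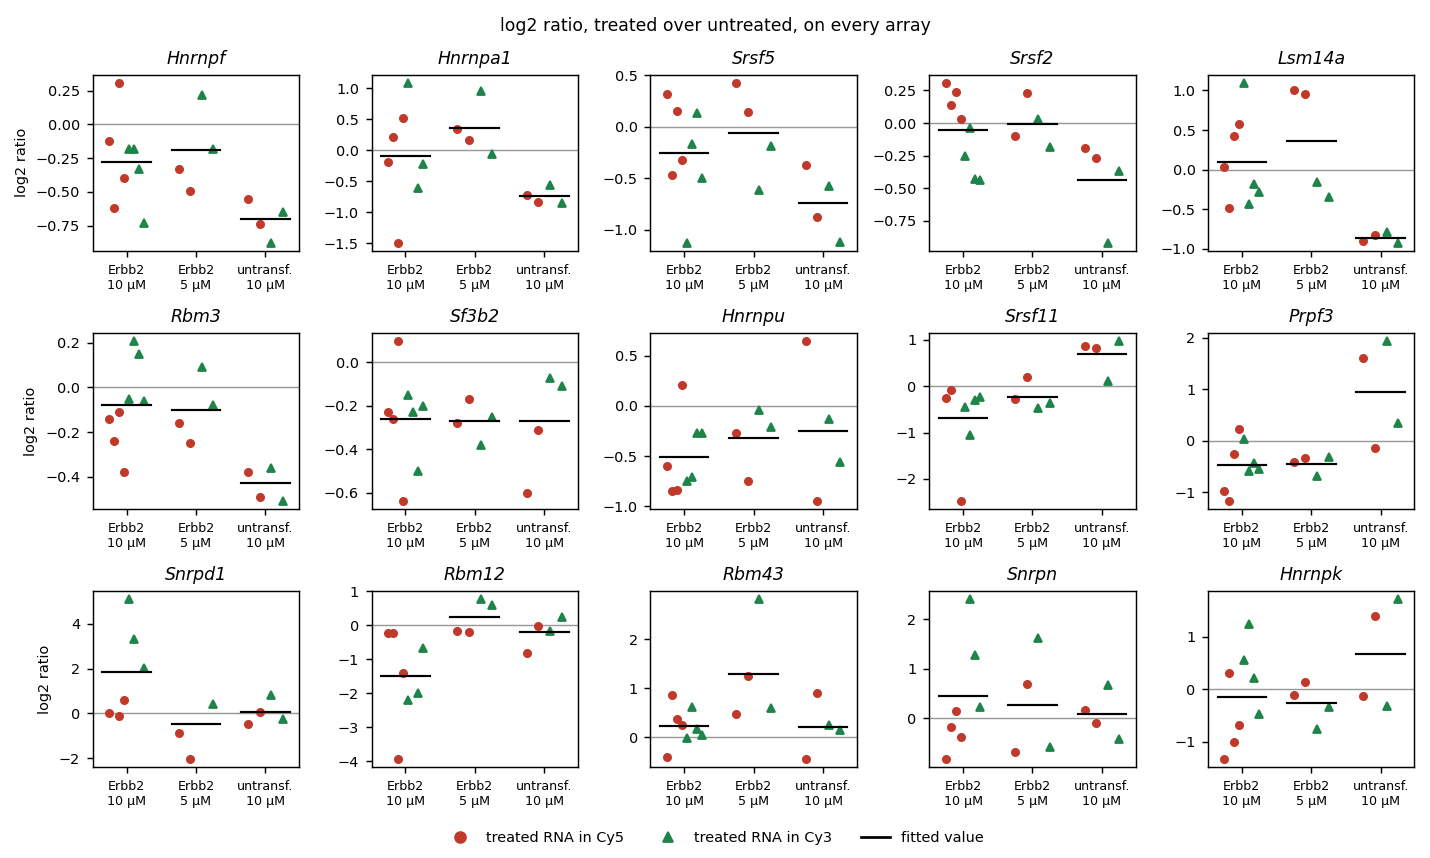
Log2 ratio of treated over untreated cells (y axis, scaled separately for each gene) on every array for 15 genes of the set in the 3 groups (x axis), with the treated RNA in Cy5 as red circles or in Cy3 as green triangles and the fitted value as a black line. Hnrnpf lies between -0.88 and -0.55 on the 4 untransfected arrays, and for Snrpd1 in Erbb2 cells at 10 µM the 3 triangles, from 2.01 to 5.12, lie above the 3 circles, from -0.10 to 0.62.

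The RBM genes, 18 measured of 20, had medians of -0.11, -0.11 and 0.11. Rbm3, a cold-induced RNA-binding protein, read -0.38, -0.49, -0.36 and -0.51 in untransfected cells (-0.43 ± 0.13, n = 4, limma adjusted p = 0.129). At 5 µM it read -0.16, -0.25, 0.09 and -0.08, and in Erbb2 cells at 10 µM it ran from -0.38 over a median of -0.09 to 0.21 (-0.08 ± 0.09, n = 8). Of the 4 untransfected arrays, 2 (-0.49 and -0.51) lay below every Erbb2 array at either dose, and the other two lay at or just above the lowest of them.

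Rbm12 had the lowest fitted value among the genes with 1 sign on every array. In Erbb2 cells at 10 µM it read -0.23, -0.22, -3.94 and -1.39 where Cy5 marked the treated RNA and -2.20, -1.99 and -0.66 where Cy3 did (-1.50 ± 0.37, n = 7, limma adjusted p = 0.0774). At 5 µM it read -0.18, -0.21, 0.78 and 0.59, just above the highest of the 7 values at 10 µM, which was -0.22, or well above it. In untransfected cells it read -0.82, -0.02, -0.18 and 0.25. Without any turning for dye its value at 10 µM was -0.03.

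Rbm43 was above 0 on the 4 arrays at 5 µM, at 0.47, 1.24, 2.82 and 0.59 (1.28 ± 0.33, limma adjusted p = 0.225). At 10 µM it ran from -0.40 over a median of 0.20 to 0.86 in Erbb2 cells and from -0.45 to 0.91 in untransfected cells. Rbm11 was above 0 on the same 4 arrays, from 0.04 to 2.83 (1.01 ± 0.62, limma adjusted p = 0.976). Rbm8a, a core protein of the complex left at exon junctions, read -0.44, -0.67, -0.75 and -0.86 at 5 µM (-0.68 ± 0.37, limma adjusted p = 0.900). Its arrays at 10 µM ran from -1.38 to 1.23 in Erbb2 cells and from -0.69 to 1.75 in untransfected cells.

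Rbm34 was below 0 on all 8 arrays of Erbb2 cells at 10 µM, from -1.11 over a median of -0.25 to -0.05 (-0.37 ± 0.17, limma adjusted p = 0.456). Rbm5, a splicing regulator, was above 0 on the 4 untransfected arrays, from 0.09 to 0.79 (0.32 ± 0.25, limma adjusted p = 0.799). Several RBM genes were measured poorly. Rbm44 ran from -5.20 to 1.28 on 6 arrays of Erbb2 cells at 10 µM (-1.61 ± 0.87), and Rbm33 read 0.38, -5.39, -0.99 and 1.03 at 5 µM (-1.25 ± 0.82). Rbm10, Rbm14, Rbm18, Rbm19, Rbm28, Rbm39, Rbm4, Rbm4b and Rbm6 had fitted values between -0.61 and 0.74 in the 3 groups.

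The next comparison asked whether Erbb2 cells answered differently to 10 µM and 5 µM, and none of the 70 genes passed, as none of all features did (0.00%). An unadjusted p under 0.05 was found for 4 of the 70 (5.71%) and for 4.34% of all features. These were Snrpd1 (2.32 ± 0.74, 10 µM minus 5 µM), Rbm12 (-1.74 ± 0.61), Rbm43 (-1.05 ± 0.40) and Prpf38a (-0.91 ± 0.35), each with a limma adjusted p of 0.998. Rbm33 followed in order of p with 2.13 ± 1.03. Rbm12 was the gene whose arrays did not overlap between the doses (1.43% of the 70 genes, against 0.644% of all features). The 95% interval of the difference lay within -1 and 1 for 31 genes (44.3%, against 32.7% of all features), and for the rest a difference beyond 1 in size was within the interval.

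Erbb2 and untransfected cells were then compared at 10 µM, and 0 of 70 genes passed, against 0.797% of all features. An unadjusted p under 0.05 was found for 6 of the 70 (8.57%, against 9.72%). The smallest was that of Prpf3, at -1.40 ± 0.37 for Erbb2 minus untransfected cells (95% interval from -2.20 to -0.61, limma adjusted p = 0.129). Srsf11 followed with -1.38 ± 0.42 (limma adjusted p = 0.222), Lsm14a with 0.95 ± 0.33 (0.284), Snrpb with -1.67 ± 0.62 (0.361), Snrpd1 with 1.78 ± 0.67 (0.374) and Rbm3 with 0.36 ± 0.16 (0.497). These differences depend on the dye read for the untransfected arrays. Over all alternatives, the other dye among them, Prpf3 ran from -1.76 to 0.48 and Srsf11 from -1.79 to 0. Lsm14a ran from -0.77 to 1.07, Snrpb from -4.14 to 0.48 and Snrpd1 from -1.42 to 3.2.

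Lsm14a and Srsf11 were the 2 of 70 genes whose arrays did not overlap between these groups (2.86%, against 2.99% of all features). With the signs of the untransfected arrays turned, the arrays of both genes overlap. Hnrnpf differed by 0.42 ± 0.22 (limma adjusted p = 0.578), so its low values in untransfected cells were not shown to be particular to them. With the other dye assumed for the treated RNA of the untransfected arrays, Hnrnpf passed in this comparison, as lower in Erbb2 cells. Both differences use the same 8 arrays of Erbb2 cells at 10 µM, and the labels do not say which arrays share untreated RNA.

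Some genes had the same sign on every array of a group. At 10 µM in Erbb2 cells, 3 of 70 genes (Rbm12, Rbm34 and Srsf11) were below 0 on every array with a value (4.29%, against 2.04% of all features), and 0 were above it (against 1.31%). At 5 µM 9 were below 0 (12.9%, against 10.2%) and 3 above (4.29%, against 8.30%). In untransfected cells 13 were below (18.6%, against 13.3%) and 7 above (10.0%, against 12.2%).

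Separate probes of a gene give a further view of the error. For 23 of the 70 genes several probes were kept, 53 in all. Their fitted values had the same sign in 13 genes in Erbb2 cells at 10 µM, in 11 at 5 µM and in 9 in untransfected cells, and the median distance between the highest and lowest probe of a gene was 0.30, 0.29 and 0.39. Probes agreed closely for Hnrnpf in untransfected cells (-0.73 and -0.68), for Rbm43 at 5 µM (1.07 and 1.08) and for Srsf5 at 5 µM (-0.06 and -0.05). In untransfected cells they also had 1 sign for Hnrnpab, Hnrnpm, Rbm28, Rbm6, Sf3b2, Snrpd3, Srsf3 and Srsf5. The value by gene is fitted to the mean, on each array, of those probes with a value there. The probes behind it can thus differ between arrays. The value by gene could lie outside its probes, as for Rbm43 at 5 µM (1.28 ± 0.33, with probes at 1.07 ± 0.41 and 1.08 ± 0.52). Hnrnpm in untransfected cells was another (-0.3, with probes at -0.68 and -0.39).

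Other genes showed wide gaps. In untransfected cells the probes of Prpf4 read -0.76 and 1.93, those of Rbm19 -0.52 and 1.94, those of Sf3a3 -0.10 and 1.56, those of Hnrnpu -0.81 and 0.67, those of Snrpa -0.01 and 1.02 and those of Srsf1 -0.31 and 0.68. Sf3a1, Rbm43, Lsm11, Prpf18, Hnrnpc, Prpf38b, Prpf4b and Rbm39 also had probes on both sides of 0 there, with gaps from 0.12 to 0.80. The mean over probes of such a gene thus joins values that disagree. With every probe tested on its own, 3 of 100 probes of the set passed in untransfected cells, all lower, where 443 of 14813 probe features did (2.99%). They were 1 probe each of Hnrnpu (-0.81 ± 0.16, limma adjusted p = 0.0113), Snrpd3 (-0.66 ± 0.15, limma adjusted p = 0.0276) and Hnrnpf (-0.73 ± 0.18, limma adjusted p = 0.0403). In Erbb2 cells 0 of the 100 passed at either dose.

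**Figure D4:**
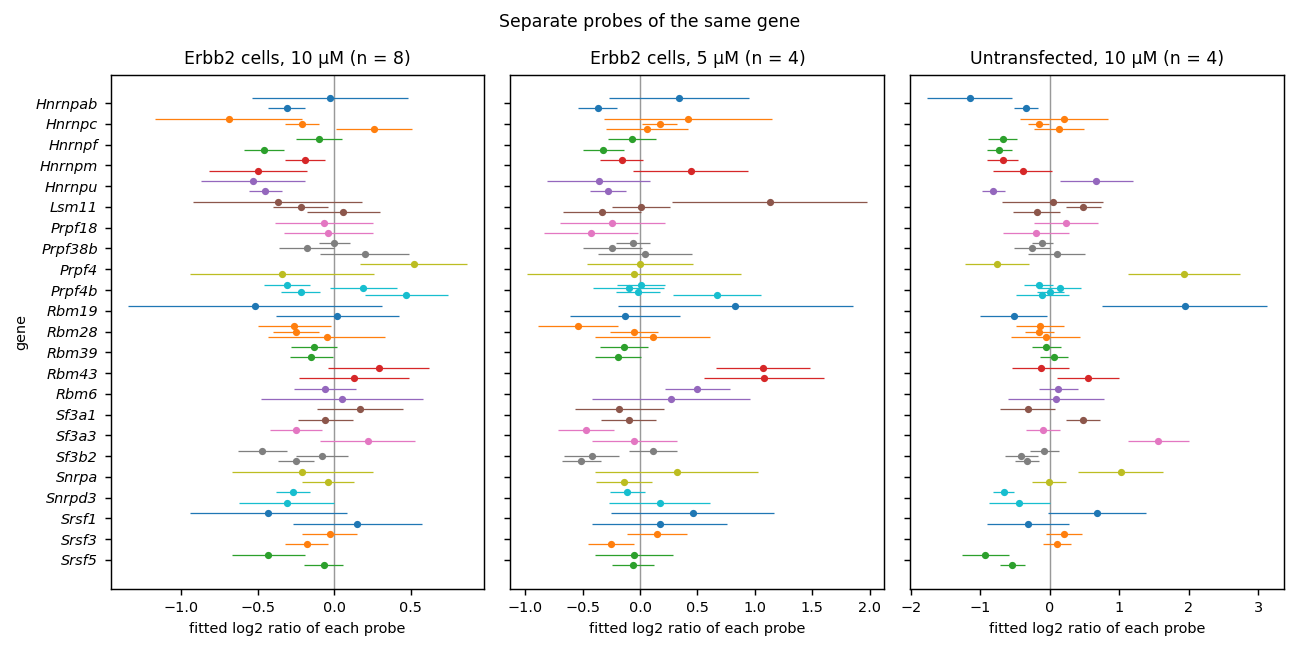
Fitted log2 ratio of treated over untreated cells (x axis) of each kept probe for the 23 genes with several probes (y axis), where lines are ± 1 standard error. The 2 probes of Hnrnpf in untransfected cells lie at -0.73 and -0.68, and those of Prpf4 at -0.76 and 1.93.

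Other genes of splicing and RNA processing, outside the rule on symbols, were listed beside the set, and 83 of 133 were measured. Of these 5 passed in untransfected cells, 2 in Erbb2 cells at 10 µM and 0 at 5 µM, all lower. Among all features 0.862% passed as lower at 10 µM and 2.13% in untransfected cells, against 2.41% and 6.02% of this list. The list was chosen with earlier results of these data known, so its shares here are a description and no test. Its median was -0.08 in either cell line at 10 µM and -0.06 at 5 µM. An unadjusted p under 0.05 was found for 18 of the 83 in Erbb2 cells at 10 µM (21.7%, against 10.8% of all features), for 6 at 5 µM (7.23%, against 6.33%) and for 18 in untransfected cells (21.7%, against 11.5%).

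Srpk2, a kinase that phosphorylates SR proteins, read -1.47, -1.50, -1.16 and -1.35 in untransfected cells. All 4 arrays were low and close together. The fitted value was -1.37 ± 0.17 (limma adjusted p = 0.000402). The value in Erbb2 cells at 10 µM was -0.15 ± 0.12, on arrays from -0.69 to 0.40, and the difference between the cells passed (1.22 ± 0.21, limma adjusted p = 0.0123). Pabpc1, the main poly(A)-binding protein of the cytoplasm, read -0.65, -0.66, -0.73 and -0.77 in untransfected cells (-0.70 ± 0.14, limma adjusted p = 0.00894) and 0.00 ± 0.10 in Erbb2 cells at 10 µM, but that difference did not pass (0.71 ± 0.17, limma adjusted p = 0.0740).

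Ptbp1, a repressor of exons, read -0.63, -1.14, -0.39 and -1.0 in untransfected cells (-0.79 ± 0.18, limma adjusted p = 0.0286), and Sfpq, a nuclear protein that binds RNA and DNA, read -0.80, -0.64, -0.55 and -0.56 (-0.64 ± 0.15, limma adjusted p = 0.0359). Their values in Erbb2 cells at 10 µM were -0.47 ± 0.13 (limma adjusted p = 0.112) and -0.45 ± 0.11 (limma adjusted p = 0.0576). Pcbp2, which binds C-rich RNA, passed in both groups at 10 µM. It read -0.78, -0.64, -1.09 and -0.91 in untransfected cells (-0.85 ± 0.21, limma adjusted p = 0.0370). In Erbb2 cells it was below 0 on 6 of 8 arrays (-0.69 ± 0.15, limma adjusted p = 0.0293). Those arrays read -0.71, 0.19, 0.02 and -0.64 where Cy5 marked the treated RNA. Where Cy3 did, they read -0.83, -1.38, -1.22 and -0.95, so the values by dye did not overlap. Luc7l3, a relative of a U1 snRNP protein of yeast, was below 0 on all 8 arrays of Erbb2 cells at 10 µM, from -0.88 to -0.35 (-0.55 ± 0.11, limma adjusted p = 0.0170), and read 0.48, 0.16, -0.40 and -0.46 in untransfected cells. If the dyes of the untransfected arrays were the other way round, the 5 genes called there were higher instead.

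For the other 10 genes of the set no single probe had enough values in every group, so they had no fitted value. They are Hnrnpll, Lsm2, Prpf31, Prpf40b, Rbm12b1, Rbm42, Sf3b3, Sf3b6, Snrpc and Srsf10. Where such a gene has several probes, the values here are means over them. Sf3b6, a protein at the branch point with 2 probes, was below 0 on all 4 untransfected arrays, from -1.25 to -0.26. Prpf31, a U4/U6 protein with 3 probes, was above 0 on all 4 arrays at 5 µM, from 0.09 to 1.27. Lsm2, of the U6 ring, had 1 value at 5 µM, and Rbm12b1 and Snrpc had 1 value each in untransfected cells.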

How the data were processed

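The genes of the set, their classes, the list of related genes and the marker lists were chosen with earlier results of these data known. The deposited values were read as log2 ratios of both channels, centred with 1 constant per array. The base and the constants were inferred from a repeated top value on each array. That value lies at a ratio of 100000 above the value that stands for a ratio of exactly 1. These top values (8 of 1968 cells of the set, beside 167 empty cells) were set to missing. Of image analysis, background correction and normalization, nothing is given in the sources used here. Per the labels, the RNA and labelling protocols speak of organs and of control animals rather than of cell lines, and 1 untransfected array, taken as the first, is titled without a replicate number.

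Groups came from titles and source names, and by the label of channel 1 Cy5 marked the treated RNA on 50% of arrays. Within groups, the mean Pearson's r over probes, taken on the deposited ratios before any turning, was 0.0257, 0.0516 and 0.109 for pairs of arrays with the same dye arrangement and 0.00388, -0.00267 and -0.0529 for opposite ones (Erbb2 at 10 µM, at 5 µM, untransfected). Array values were then turned to treated over untreated, after which r between any 2 of the 16 arrays ran from -0.035 to 0.117.

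A probe needed values on 3 arrays of each group of 4 and 6 of the group of 8, with 1 of each dye arrangement. Probes with 1 symbol were averaged by gene. Symbols came from the platform annotation. One model of all 16 arrays was fitted with limma 3.58.1 in R 4.3.3 (with version 1.17.8 of data.table), with 3 group coefficients, a shared dye term, eBayes and two-sided tests, adjusted by Benjamini-Hochberg over 12420 features. The dye term passed for 0 features in limma, with 1000 at an unadjusted p under 0.05, of which 4 were genes of the set. The procedure was tested on simulated data. No other tool was run, and 0 value columns were left unused.

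Genes were named by a rule. It took, in each group, the 5 highest and 5 lowest with 1 sign on every array, and in each difference between groups the 5 with the smallest p. It added genes with several probes, a short list named whatever their values, and related genes that passed. Other genes, with a low unadjusted p or an extreme value, were added after their values were seen. Alternatives changed the direction, dye term, filter, centring, placeholders, probe averaging, moderation, weights, replicate block and arrays used. Same-numbered arrays of different groups were not paired (r from -0.028 to 0.038 over 12 pairs). Since r within groups was also low, it cannot show whether such arrays share untreated RNA or a batch.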

Additional observations from a re-analysis of the deposited data

Results flagged for a closer look

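In 9 of 135 groups of arrays tested, over 46 named genes, 1 array lay far from the others of its group, where chance flags about 1 group in 20. In none of these 9 groups had the gene passed, as no gene of the set passed in any group.

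In untransfected cells the array at -1.68 stood apart for Hnrnpab (next value -0.48), that at -0.55 for Prpf18 (0.26), that at -0.24 for Prpf4b (0.03) and that at -0.54 for Sf3a3 (0.68). There 2.13 stood apart for Snrpa (next value 0.19) and 0.52 for U2af1 (0.26). At 5 µM the third array of U2af1 stood apart at -0.77 (next value 0.04). In Erbb2 cells at 10 µM the array at 0.84 stood apart for Snrpb (next value -0.63) and that at -2.48 for Srsf11 (-1.05).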

How the results depend on the processing

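The counts of genes of the set that passed were 0 in each comparison and stayed 0 in both the 5 µM group and the difference between doses under every alternative run. In Erbb2 cells at 10 µM 1 of 44 genes (Hnrnpu, 2.27%) passed among features with a value on all 16 arrays, where 3.46% of all 7148 such features did. In untransfected cells 4 of the 44 (Hnrnpf, Hnrnpu, Rbm3 and Srsf5, 9.09%) passed under that filter, against 6.63% of all such features, and 3 of 100 probes with every probe a feature, against 2.99%. That filter acts on probes, so a gene can rest on fewer of them. In the main fit Hnrnpu was -0.25 in untransfected cells (limma adjusted p = 0.912), with probes at -0.81 and 0.67. Hnrnpf was the 1 gene to pass in untransfected cells with no dye term, with arrays centred on their median and with arrays centred and scaled. It was also the 1 gene to pass there with array weights and without the 3 widest arrays of Erbb2 cells at 10 µM. That is 1.43% of the set, against between 2.6% and 3.54% of all features in these settings. Leaving out 1 array in turn gave between 0 and 1 there (Hnrnpf without array 3 or 8, Lsm14a without array 5 of Erbb2 cells at 10 µM, Lsm8 without untransfected array 1) and 0 in the other comparisons. Each such call was 1.43% of the set, against between 1.79% and 2.82% of all features. In the difference between cells 1 gene (Hnrnpf, 1.43%) passed with the other dye assumed on the untransfected arrays, against 2.83% of all features. The cause was not tested.

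With no array turned for its dye the median over the set at 10 µM was -0.00, and that of the related genes 0.03, 0.06 and -0.02 in the 3 groups. In untransfected cells the median over the set was -0.06 with every probe a feature, and that of the related genes 0.08 with the other dye and -0.14 with arrays of treated RNA in Cy5 only. Leaving out 1 array in turn moved the medians over the set between -0.12 and -0.07, -0.11 and -0.06, and -0.03 and 0.03, and those of the related genes between -0.13 and -0.06, -0.06 and -0.02, and -0.11 and -0.05. With the replicate block (consensus correlation 0.0695) 0 genes passed in each comparison and the medians over the set were -0.09, -0.08 and 0.03, so it changed no call. Setting cells at a ratio of exactly 1 to missing was chosen after seeing the data and changed no count. Of the values of single named genes, 30 changed sign with no array turned and 21 with the other dye. The number of arrays, the low correlation between them and the unknown signal over background limit what could be detected.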
